A study of Arabidopsis thaliana with 8 samples.

Results

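AT5G60250, AT2G18720, AT1G23100, AT2G03130, AT1G17960 and AT2G18190 are 6 Arabidopsis genes that were selected because their transcripts were higher in the rh10-1 mutant at both growth temperatures, out of 13074 genes that could be named on the array and 8399 that passed a filter on low signals. The selection named the genes and gave no numerical limit, and it did not say whether as2-1 plants were considered. The rh10-1 differences below are therefore a description of what was selected and carry no test. Each gene was read by 1 probe set, and all 6 probe sets passed the filter, which asked for a signal over the 40th percentile of all probe sets on at least 1 array. For 5 of the 6, all but AT1G23100, only arrays with rh10-1 reached that level, as for 348 of the 8399 genes, so these 5 had to be higher with rh10-1 to pass. The 3 tested questions were whether as2-1 altered the rh10-1 difference, whether as2-1 moved the genes in itself, and whether temperature did.

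The samples were shoot apices with leaf primordia of plants grown on soil in long days for 15 days. The wild type was the Col-0 accession, and the authors outcrossed as2-1 with Col-0 before use. There were 4 genotypes, namely wild-type Col-0, as2-1, rh10-1 and the double mutant as2-1 rh10-1, and each was grown at 26°C and at 22°C. The rh10-1 allele is a missense, temperature-sensitive allele that was isolated from an as2-1 population as an enhancer of its leaf phenotype. Every combination of genotype and temperature was represented by 1 ATH1 GeneChip, so the 8 arrays hold no replicates, and the number of plants behind each array was not given in the sources used here. The arrays of each temperature formed a set of their own, and temperature and array set cannot be told apart.

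RH10 is a DEAD-box RNA helicase of the nucleolus, the orthologue of yeast Rrp3 and human DDX47, and acts in early cleavages of the precursor of 18S ribosomal RNA. AS2 is a plant-specific nuclear protein that works with the MYB protein AS1 to repress genes of the abaxial (lower) leaf side. By their general annotation, 3 of the 6 genes belong to protein synthesis. AT2G18720 encodes a protein of the EF1A and eIF2-gamma family of GTPases that deliver tRNA to the ribosome, AT1G17960 a threonyl-tRNA synthetase, which joins threonine to its tRNA, and AT2G03130 a protein of the ribosomal L12 and ClpS family. AT1G23100 encodes a GroES-like protein, the co-chaperonin lid of the barrel in which organelle proteins fold, AT2G18190 an AAA-ATPase and AT5G60250 a RING-type zinc finger protein, a class that often acts in ubiquitin ligation.

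The signals were linear intensities scaled by array to 1 level, with 2% trimmed means of 198.1 to 198.37 and medians of 69.65 to 79.9. A signal near the 20th percentile of an array, which was 8.9 to 11.5, is little above the lowest readings, and a ratio against it is loosely measured. Such ratios are therefore also given with signals raised to that percentile, which are called floored. RH10 itself (AT5G60990) had signals of 347.8, 293.4, 394.1 and 261.1 at 26°C in wild type, as2-1, rh10-1 and the double mutant, and of 352.2, 439.1, 677.1 and 553.8 at 22°C. A missense allele need not change the transcript, so these values check no label, and AS2 was not analysed here. Of the shoot apex markers, the abaxial gene YAB5 read 62.6 to 245.8 and PHV 214.2 to 494.2, while CLV3, a stem cell peptide gene, read 0.9 to 26.8 and did not pass the filter. The root gene PYK10 read 2236.2 to 7679.3, and the root hair genes EXPA7 and AT5G04960 read at most 11.6 and 21.5. The annotation used left 8730 of 22746 probe sets without a gene name, and the 6 listed floral organ identity genes were among the genes not analysed here.

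The translation factor relative AT2G18720 was close to the lowest readings without rh10-1 and clearly measured with it. At 26°C its signals were 5.0 in the wild type, 4.6 in as2-1, 102.8 in rh10-1 and 117.2 in the double mutant. At 22°C the same genotypes gave 10.5, 14.4, 122.8 and 89.9. All 4 rh10-1 arrays, single and double mutants together, lay above all 4 others, and 3 of the 4 arrays without rh10-1 were under the 20th percentile of their array. The ratios of rh10-1 to Col-0 were 20.6-fold at 26°C and 11.7-fold at 22°C, and those of the double mutant to as2-1 were 25.5-fold and 6.24-fold. Floored, these became 8.94-fold, 10.9-fold, 13.2-fold and 6.24-fold in the same order.

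The threonyl-tRNA synthetase gene AT1G17960 was high with rh10-1 at both temperatures, and its level without rh10-1 differed between them. At 26°C its signals were 41.6 in the wild type, 34.3 in as2-1, 207.1 in rh10-1 and 319.2 in the double mutant. At 22°C they were 6.3, 1.7, 115.7 and 100.3, with both arrays without rh10-1 under the 20th percentile. The groups did not overlap, and the lowest rh10-1 array, at 100.3, stood over the highest of the others, at 41.6. The double mutant's ratio to as2-1 at 22°C was 59.0-fold, but it was taken against the signal of 1.7 and was 10.2-fold when floored. The other ratios were 4.98-fold for rh10-1 over Col-0 at 26°C, 9.31-fold for the double mutant over as2-1 at 26°C and 18.4-fold for rh10-1 over Col-0 at 22°C, the last being 10.2-fold when floored.

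The ribosomal L12 and ClpS family gene AT2G03130 was low without rh10-1, most of all at 26°C, and was high with it. Its signals at 26°C were 5.9 in the wild type, 1.8 in as2-1, 300.7 in rh10-1 and 155.4 in the double mutant. At 22°C they were 22.7, 24.8, 171.5 and 141.8. The rh10-1 arrays were again all above the others, and it was the 26°C arrays without rh10-1 that fell under the 20th percentile, unlike for AT1G17960, where it was those at 22°C. At 26°C the ratios of 51.0-fold over Col-0 and 86.3-fold over as2-1 were 26.2-fold and 17.5-fold when floored. At 22°C all 4 signals were above the floor, and the ratios were 7.56-fold and 5.72-fold.

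The GroES-like gene AT1G23100 was the exception among the 6, because its groups overlapped and its rh10-1 difference was small in as2-1. Its signals at 26°C were 12.9 in the wild type, 29.9 in as2-1, 85.5 in rh10-1 and 45.8 in the double mutant. At 22°C they were 77.5, 142.3, 221.8 and 157.5. Within each temperature both rh10-1 arrays were above both others, but the double mutant at 26°C, at 45.8, was below Col-0 and as2-1 at 22°C. The ratio of rh10-1 to Col-0 was 6.63-fold at 26°C and 2.86-fold at 22°C, against 1.53-fold and 1.11-fold for the double mutant over as2-1.

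The AAA-ATPase gene AT2G18190 was above the 20th percentile on all 8 arrays, so that its ratios did not change when floored. At 26°C its signals were 18.1 in the wild type, 23.8 in as2-1, 215.7 in rh10-1 and 164.4 in the double mutant. At 22°C they were 21.6, 17.8, 100.2 and 52.3, the last just above the 40th percentile of its array, 40.4. The 4 arrays without rh10-1 lay within a narrow band, and the rh10-1 arrays all lay above them. The ratios were 11.9-fold over Col-0 and 6.91-fold over as2-1 at 26°C, and 4.64-fold and 2.94-fold at 22°C.

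The RING finger gene AT5G60250 had the steadiest rh10-1 difference of the 6 over the 4 pairs of arrays, from 2.36 to 3.07 on the log2 scale. Its signals at 26°C were 25.3 in the wild type, 35.1 in as2-1, 130.1 in rh10-1 and 214.1 in the double mutant. At 22°C they were 24.4, 19.4, 205.5 and 152.3. The lowest rh10-1 array, at 130.1, was far above the highest of the others, at 35.1. The ratios over Col-0 and over as2-1 were 5.14-fold and 6.10-fold at 26°C and 8.42-fold and 7.85-fold at 22°C, with no signal under the 20th percentile.

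**Figure D1:**
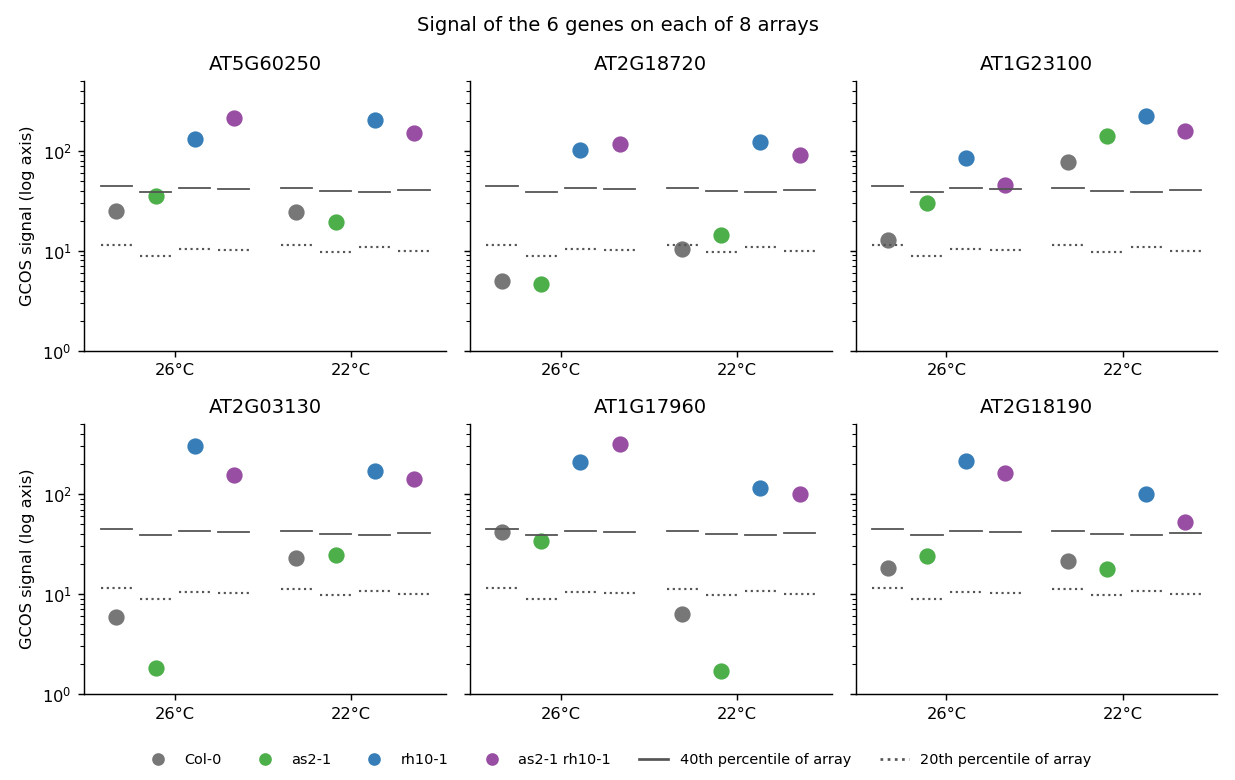
Signals of the 6 genes (linear GCOS intensity on a log axis) on each of the 8 arrays, 1 point an array, by temperature and genotype, with the 40th (solid) and 20th (dotted) percentile of each array. In 5 genes all rh10-1 and as2-1 rh10-1 arrays lie above all Col-0 and as2-1 arrays, whereas in AT1G23100 the double mutant at 26°C (45.8) lies below as2-1 at 22°C (142.3).

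Put together by pair, all 6 genes were at least 2-fold higher in rh10-1 than in Col-0 at 26°C, where 4.26% of all genes were, and at 22°C, where 4.82% were. The double mutant was at least 2-fold above as2-1 for 5 of the 6 at 26°C, against 6.56% of all genes, and for 5 of the 6 at 22°C, against 2.86%. These 5, all but AT1G23100, passed 2-fold in all 4 pairs, as did 22 genes of the array (0.262%), and in the same 5 genes all 4 rh10-1 arrays were above all 4 others (1.57% of all genes). All 6 genes had both rh10-1 arrays above both others within each temperature, which 4.92% of all genes did, and a mean rh10-1 difference above 0, which 48.7% did. Since the genes were selected on this difference, nothing is read from these shares. The median of the 6 genes was 3.15 for rh10-1 over Col-0 at 26°C and 2.996 at 22°C on the log2 scale, and 3.003 and 2.58 for the double mutant over as2-1. In bulk tissue a change in the number of cells that hold a transcript and a change in its amount per cell cannot be told apart.

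**Figure D2:**
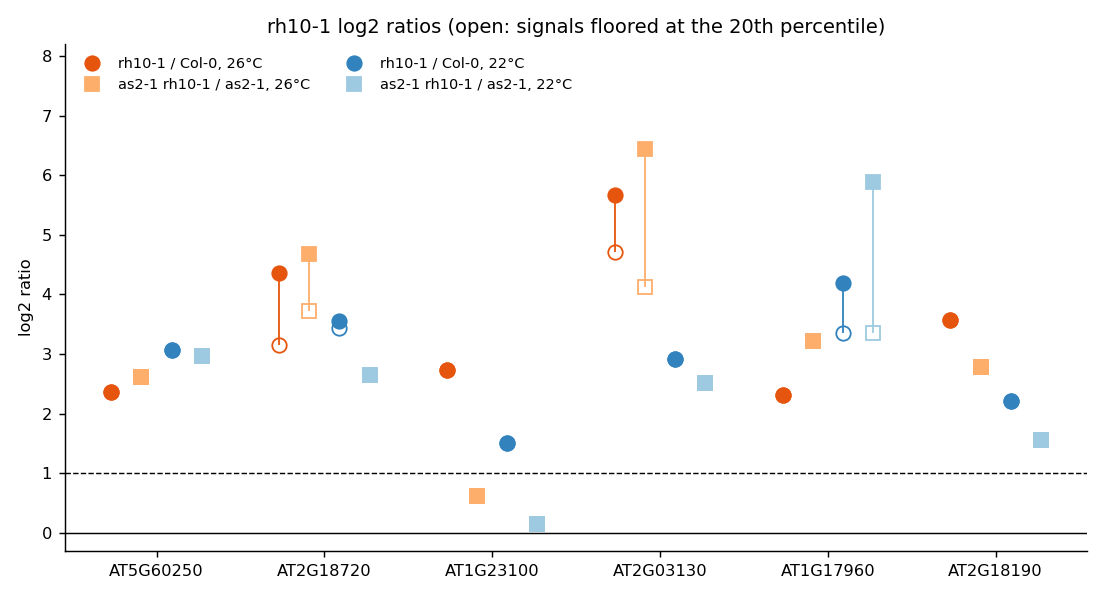
Log2 ratios with over without rh10-1 for the 6 genes, in the AS2 (circles) and as2-1 (squares) background at 26°C and 22°C, 1 pair of arrays a symbol, with open symbols and joining lines for signals floored at the 20th percentile and a dashed line at 2-fold. The squares of AT1G23100 lie under 2-fold (0.62 and 0.15), and flooring lowers the largest ratios, such as that of AT1G17960 in as2-1 at 22°C from 5.88 to 3.36.

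The response to rh10-1 was then compared between plants with and without functional AS2. Averaged over both temperatures, the log2 difference was 2.12 in the AS2 background and 0.38 in as2-1 for AT1G23100, and 2.89 and 2.17 for AT2G18190. For AT1G17960 it was 3.26 and 4.55, the second resting on the 1.7 signal. The remaining genes gave like values in both backgrounds, namely 2.72 and 2.79 for AT5G60250, 3.96 and 3.66 for AT2G18720 and 4.29 and 4.47 for AT2G03130.

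By temperature, the as2-1 value less the AS2 value was -2.11 at 26°C and -1.37 at 22°C for AT1G23100. These stood at percentile 1.5 and percentile 2.4 of the 8399 genes. The rh10-1 to Col-0 difference enters this value with a minus sign, and the gene was selected for high rh10-1 signals. The percentiles are therefore not independent of the selection, and nothing is read from them. Both parts of the pair contributed, since as2-1 was above Col-0 by 1.21 and 0.88 on the log2 scale and the double mutant differed from rh10-1 by -0.90 and -0.49. AT2G18190 also had the smaller response in as2-1 at both temperatures, with -0.79 and -0.66. AT1G17960 had the larger one, with 0.90 and 1.68, but floored signals gave 0.90 and -0.001.

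The other 3 genes had departures of opposite sign at the 2 temperatures. They were 0.25 and -0.10 for AT5G60250, 0.31 and -0.91 for AT2G18720 and 0.76 and -0.40 for AT2G03130, the last being -0.58 and -0.40 when floored. At 22°C the double mutant was below rh10-1 in all 6 genes, by a median of -0.44 with a range from -0.94 to -0.21, where 49% of all genes were below. At 26°C it was below in 3 of the 6, with a median of -0.10. The rh10-1 array at 22°C in this comparison was also among the arrays on which the genes were selected.

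**Figure D3:**
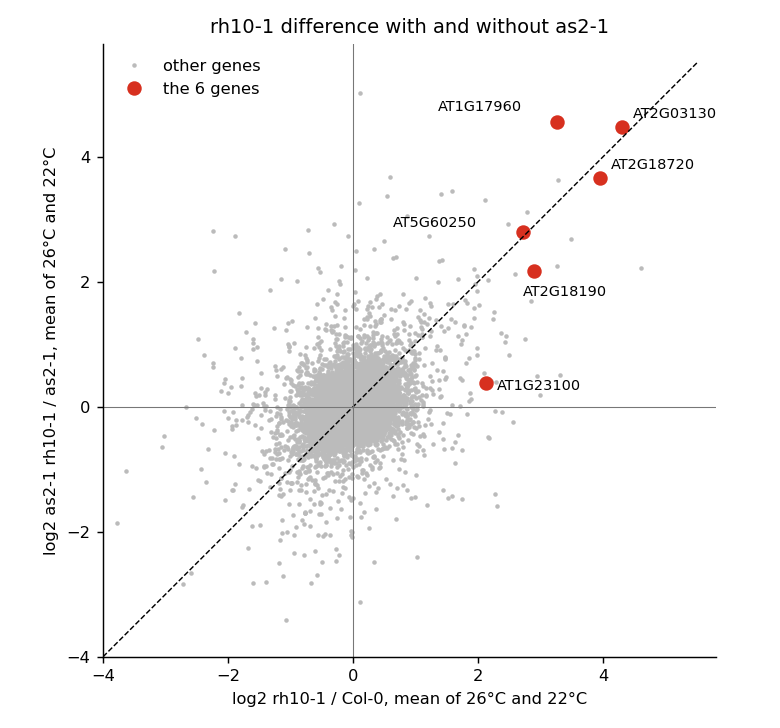
Mean log2 difference for rh10-1 over both temperatures in the AS2 background (x axis) and in as2-1 (y axis), for the 6 genes (red) and all other genes passing the filter (grey), with a dashed line where both are equal. AT1G23100 lies far under the line (2.12 against 0.38) and AT1G17960 above it (3.26 against 4.55).

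The as2-1 by rh10-1 term was tested in a limma model over all 8 arrays, in which the 2 temperatures served as repeats of each genotype. After Benjamini-Hochberg adjustment it was past 0.05 for none of the 6 genes and for 0 of 8399 in all (0%), while at an unadjusted p under 0.05 there were 172 genes, 1 of them among the 6. That gene was AT1G23100, with a term of -1.74 (95% interval -2.86 to -0.62, limma, unadjusted p = 0.0066, adjusted p = 0.999). Over the 16 settings of the processing that were tried, its term lay between -2.16 and -1.33, with unadjusted p of 0.00349 to 0.0422 and adjusted p of 0.556 to 1. The arrays of rh10-1 and Col-0 entered both this term and the selection of the genes, so that it is not independent of the selection if that was made on the AS2 background alone.

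The intervals of the other terms were wide and held 0. They ran from -1.17 to 1.32 around 0.07 for AT5G60250, from -2.26 to 0.81 around -0.72 for AT2G18190 and from -2.29 to 1.69 around -0.30 for AT2G18720. For AT1G17960 the term was 1.29 with an interval of -1.02 to 3.60, and for AT2G03130 it was 0.18 with -2.84 to 3.20. For 4 of these 5 genes the interval held both a 2-fold smaller and a 2-fold larger rh10-1 response in as2-1. That of AT2G18190 held the 2-fold smaller but not the 2-fold larger response.

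The as2-1 difference itself, averaged over plants with and without rh10-1, was likewise past the adjusted threshold for none of the 6 genes and for 0 of all genes (0%) in limma, with 367 genes but none of the 6 at an unadjusted p under 0.05. The estimates were 0.17 for AT1G23100, 0.11 for AT5G60250, 0.02 for AT2G18720, -0.30 for AT2G18190, -0.44 for AT1G17960 and -0.70 for AT2G03130, with adjusted p of 0.963 to 0.997.

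Between the temperatures 2 of the 6 genes differed, in opposite directions. The same limma model called 21.4% of all genes higher and 17.1% lower at 26°C, so the count of 2 is not read as particular to these genes. AT1G17960 was higher at 26°C by 2.39 on the log2 scale (95% interval 1.24 to 3.55, adjusted p = 0.00636), and AT1G23100 was lower by -1.999 (-2.56 to -1.44, adjusted p = 0.000525). Both were called in all 16 settings, with ranges of 1.55 to 2.91 and of -2.21 to -1.80. The differences were in the same direction in all 4 genotypes. For AT1G17960 they were 2.72 in the wild type, 4.34 in as2-1, 0.84 in rh10-1 and 1.67 in the double mutant, and for AT1G23100 they were -2.59, -2.25, -1.38 and -1.78. The values of AT1G17960 in the wild type and as2-1 rest on 22°C signals of 6.3 and 1.7, both under the 20th percentile. With floored signals the estimate for AT1G17960 was 1.55.

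The other 4 genes were not called for temperature. AT2G18190 had an estimate of 0.73 (limma adjusted p = 0.118), and its own differences were -0.26 in the wild type, 0.42 in as2-1, 1.11 in rh10-1 and 1.65 in the double mutant. AT2G03130 had -1.20 (adjusted p = 0.183), made of -1.94 in Col-0 and -3.78 in as2-1 against 0.81 in rh10-1 and 0.13 in the double mutant. AT2G18720 had -0.65 (adjusted p = 0.27) and AT5G60250 had 0.19 (adjusted p = 0.622). The rh10-1 difference averaged over backgrounds was larger at 26°C than at 22°C by 3.34 for AT2G03130, 1.42 for AT2G18720, 1.30 for AT2G18190 and 0.84 for AT1G23100, and smaller by -0.54 for AT5G60250 and -2.27 for AT1G17960. With floored signals the figures for AT2G03130, AT2G18720 and AT1G17960 were 1.70, 0.40 and -0.59.

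**Figure D4:**
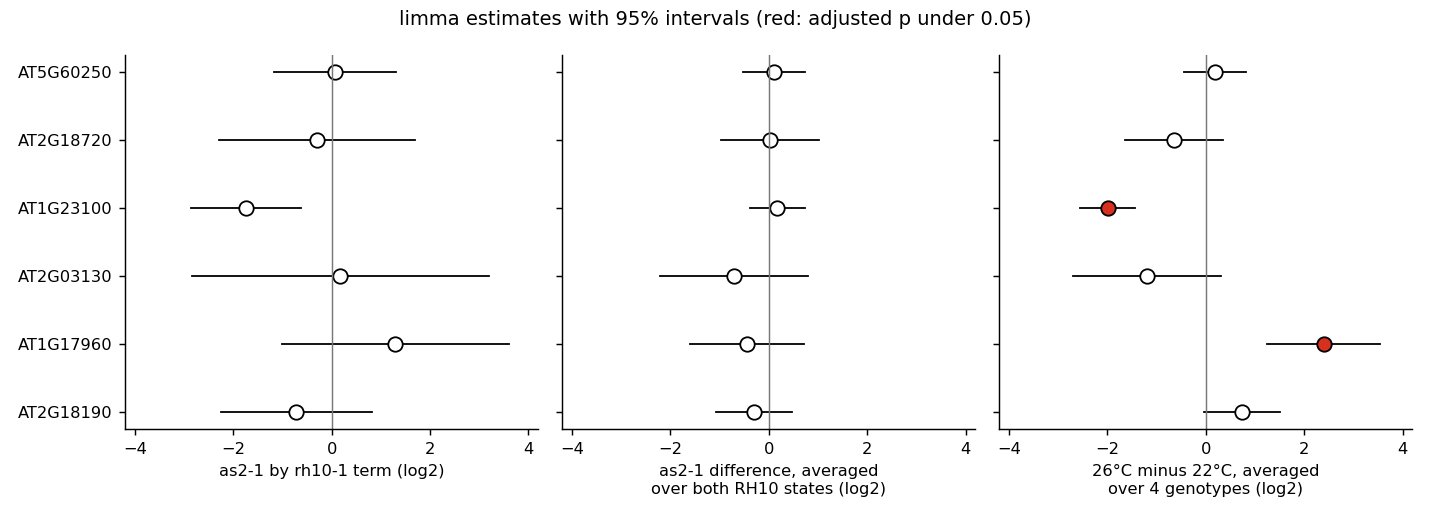
Estimates of 3 limma terms for the 6 genes (log2, points) with 95% intervals (lines), from left to right the as2-1 by rh10-1 term, the as2-1 difference averaged over both RH10 states and 26°C minus 22°C, with red for an adjusted p under 0.05. Only AT1G23100 (-1.999) and AT1G17960 (2.39) are called, both for temperature.

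Genes of the same or related families were examined in lists that do not contain the 6 genes. Of 53 named list genes 39 passed the filter, 4 of them only through arrays with rh10-1, and none of the 39 was at least 2-fold higher with rh10-1 in all 4 pairs. None was called by limma for rh10-1 averaged over both backgrounds, while 4 of all genes were (0.0476%). AT1G24095 and AT1G67760, named again below, were among these 4. AT1G24095 was over the 40th percentile only on arrays with rh10-1, so it had to be higher with rh10-1 to be tested. At an unadjusted limma p under 0.05 were 7 of the 39 list genes and 797 of the 8399 genes in all. Of the 7, AT5G51440 and AT4G22960 passed the filter only through arrays with rh10-1, so nothing is read from these counts. None of the 39 was called for the as2-1 by rh10-1 term, with 1 at an unadjusted p under 0.05, the mitochondrial L12-type gene AT4G36420.

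Among aminoacyl-tRNA synthetases, 14 of 28 listed genes were measured, with a median rh10-1 difference of 0.17 on the log2 scale against -0.01 over all genes. The mean over the 4 pairs was above 0 for all 14, against 48.7% of all genes, but for none by more than 0.40. Single pairs had both signs. For the double mutant over as2-1 at 26°C they ran from -0.27 for AT1G72550 to 0.45 for AT3G04600. In limma, 3 were at an unadjusted p under 0.05. The largest means were those of AT5G27470 with 0.40 and AT4G10320 with 0.38, seryl- and isoleucyl-tRNA synthetases. AT5G26830, a further threonyl-tRNA synthetase gene, had a difference of 0.15. The mean difference of AT1G17960, which was selected on it, was 3.90, or 3.06 when floored.

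The 3 measured translation factors of the list of eIF2 and EF1A relatives, of 16 listed, had a median of -0.001, with -0.06 for AT5G19510 and 0.06 for AT2G40290. A further named gene of this list, AT4G18330, did not pass the filter. Its floored differences ran from -1.07 to 1.29, with a mean of 0.33. The list holds relatives in a wide sense, so its median does not speak for the GTPases closest to AT2G18720. The 4 measured organelle chaperonins, of 13 listed, had a median of 0.10, with 0.22 for Cpn60beta4 and 0.11 for Cpn60beta2. AT3G60210 was lowest with -0.10, on pairs that ran from -0.46 to 0.39. This list too holds relatives in a wide sense. The 5 measured L12 and ClpS genes, of 8 listed, had a median of 0.15, with 0.41 for AT4G36420 and 0.37 for AT3G06040. The pairs of AT4G36420 ran from -0.31, in as2-1 at 26°C, to 0.89. The mean of AT3G06040 rested mostly on rh10-1 over Col-0 at 22°C (1.47), with the other pairs from -0.25 to 0.19. The means of the 6 genes, 1.25 to 4.38, or 1.25 to 3.57 when floored, lay outside the range of each of these lists. The 6 genes were selected on this difference and the list genes were not, so nothing is read from that.

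Of 21 listed AAA-ATPases of the BCS1 and AATP1 type, 13 were named, with a median of 0.14 and a range of -0.43 to 0.66 on floored signals. Of these, 5 passed the filter, 1 of them only through arrays with rh10-1. Without flooring, the largest 2 of the 5 were AT5G17760 with 0.54, 1 of the genes at an unadjusted limma p under 0.05, and AT1G43910 with 0.31. The pairs of AT5G17760 ran from 0.14 to 1.22. Those of AT1G43910 were 0.59 and 1.72 at 26°C but -0.83 and -0.25 at 22°C. Floored, AT3G28540, the gene that passed only through arrays with rh10-1, had 0.41. The 16 listed genes of the ARIADNE class of RING proteins had no name in the annotation used and were not analysed here.

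The list genes were also compared between the temperatures. Of the 39 genes, limma called 13 lower and 3 higher at 26°C, against 17.1% lower and 21.4% higher of all genes. The lower ones, as was AT1G23100, included the chaperonins Cpn60beta2 (-2.40), AT3G60210 (-0.57) and Cpn60beta3 (-0.52), the L12-type genes AT4G36420 (-1.02) and AT3G06040 (-0.72) and the translation factor AT2G40290 (-0.66). The aminoacyl-tRNA synthetases AT4G10320 (-0.88), AT5G26710 (-0.80), AT4G39280 (-0.79), AT5G26830 (-0.62), AT5G27470 (-0.50) and AT3G04600 (-0.50) were also lower, in the direction opposite to that of AT1G17960. The last of the 13 was the AAA-ATPase gene AT1G43910 (-1.21), while AT4G25835 (1.00) and AT2G46620 (0.89) of that class and PYK10 (0.97) were higher.

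Mitochondrial stress markers are nuclear genes that plants switch on when mitochondria fail, and 5 of 12 listed were named. On floored signals their mean rh10-1 differences were all above 0, with a median of 1.204 and a range of 0.11 to 1.58, and 3 of the 5 passed the filter, 2 of them only through an array with rh10-1. AT2G21640, a gene induced by oxidative stress, was the exception that passed through arrays of both kinds, with signals of 86.4, 49.3, 337.1 and 229.9 at 26°C in Col-0, as2-1, rh10-1 and the double mutant, and of 51.0, 80.6, 176.8 and 101.8 at 22°C. Its mean difference was 1.58 (limma unadjusted p = 0.000492, adjusted p = 0.172), and all 4 rh10-1 arrays were above all others.

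The other 4 mitochondrial markers were weakly measured. AT2G04050, a MATE-type transporter gene, had signals of 1.8, 0.9, 45.3 and 23.7 at 26°C and 16.2, 10, 19.8 and 22.0 at 22°C, with a mean difference of 2.70 that was 1.204 when floored. AT5G51440, a mitochondrial small heat shock protein gene, had 1.92, or 1.34 when floored, on signals of at most 53.3. NDB4 and AT5G09570 did not pass the filter and had floored means of 0.48 and 0.11.

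Of 13 listed DNA damage response genes, 2 were named. They were AT4G22960 with 1.53 (limma unadjusted p = 0.000767, adjusted p = 0.19), which passed the filter only through arrays with rh10-1, and ATMND1 with 0.38. The part that stress or DNA damage had in the level of the 6 genes was not tested.

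**Figure D5:**
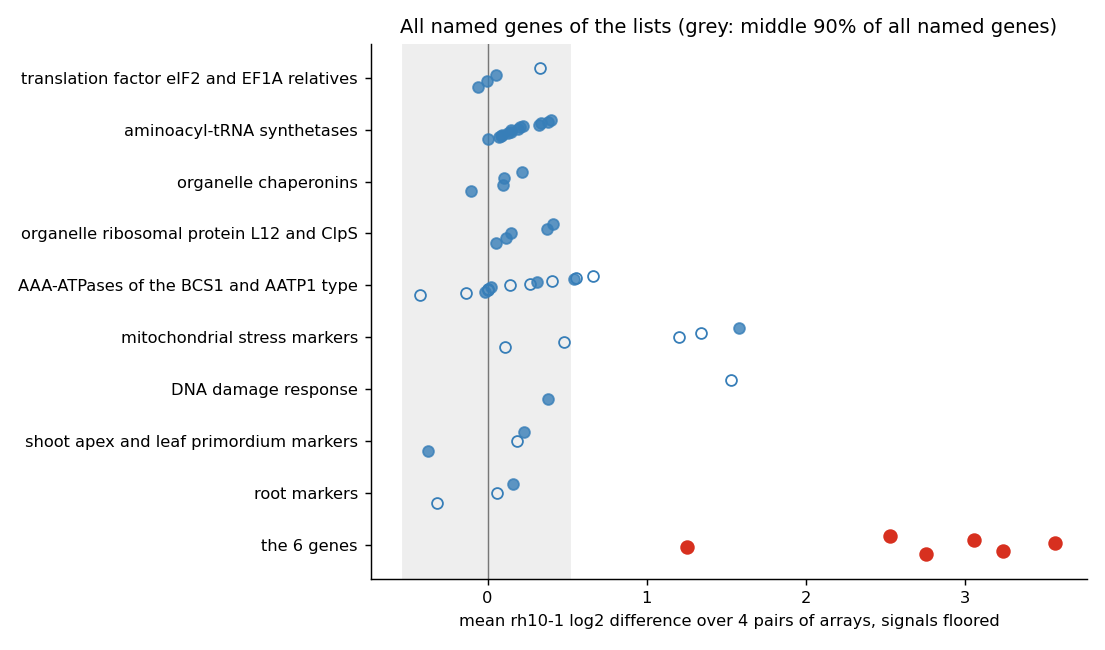
Mean log2 difference for rh10-1 over 4 pairs of arrays, on signals floored at the 20th percentile, for all named genes of the lists (blue, open where the gene failed the filter or passed it only through arrays with rh10-1) and the 6 selected genes (red), 1 point a gene, with grey for the middle 90% of all named genes. The aminoacyl-tRNA synthetases lie between 0.001 and 0.40, the mitochondrial stress markers between 0.11 and 1.58, and the 6 genes between 1.25 and 3.57.

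The 6 genes were then set beside the genes whose profile was most like theirs. Over the 8 arrays, Pearson's r with the mean standardised profile of the 6 was computed for 3327 genes, and the 10 highest are given as a description, since the arrays share genotypes and temperatures. AT1G49150 was first (r = 0.959), with 5.9, 9.0, 51.8 and 36.0 at 26°C and 11.9, 13.4, 30.9 and 27.1 at 22°C. AT5G08360 (0.946), AT3G28330 (0.936), AT1G24095 (0.932), AT3G21040 (0.927) and AT1G67760 (0.921) followed. AT1G24095 had 40.1, 14.0, 262.5 and 201.7 at 26°C and 19.0, 28.0, 137.7 and 146.6 at 22°C, a mean difference of 2.95. The last 4 were AT2G16630 (0.905), AT1G20390 (0.884), AT2G24255 (0.879) and AT4G19520 (0.877), and the mean rh10-1 differences of all 10 lay between 1.15 and 3.08. Such differences follow from the ranking, since the profile holds the rh10-1 step for which the 6 genes were selected. Several of the 10 were over the 40th percentile only on arrays with rh10-1. For AT1G49150 this was the rh10-1 array at 26°C alone.

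Apart from the step between plants with and without rh10-1, no common profile of the 6 genes was seen on these arrays. Over all 8 arrays the median r of the 15 gene pairs was 0.79, with a range of -0.08 to 0.96. Over the 4 rh10-1 arrays it was 0.005, with a range of -0.95 to 0.82, and over the 4 other arrays -0.40, with a range of -0.985 to 0.92. These are 4 points each and describe these arrays only.

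The genes lie on chromosomes 1 (AT1G17960 and AT1G23100), 2 (AT2G03130, AT2G18190 and AT2G18720) and 5 (AT5G60250). Of the 24 protein-coding genes within 2 places of any of them, 8 were named on the array and 5 passed the filter, and none of the 5 was 2-fold higher with rh10-1 in all 4 pairs. The median rh10-1 difference of these 5 was -0.04, with the highest for AT2G18180, next to AT2G18190, at 0.77. AT5G60260, next to AT5G60250, did not pass the filter, and its signals were 3.6, 5.8, 16.3 and 26.1 at 26°C and 1.2, 3.6, 10 and 4.6 at 22°C. AT5G60250 is on the same chromosome as RH10, with 78 protein-coding genes between them. Of these, 19 were measured, with a median rh10-1 difference of 0.006 and a range of -0.57 to 1.33, and none was 2-fold higher in all 4 pairs. Whether a sequence change carried along with rh10-1 near that locus affects AT5G60250 was not tested.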

How the data were processed

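The authors hybridised biotin-labelled RNA (GeneChip 3′ IVT Express Kit) of 8 shoot apex samples to ATH1 arrays and computed the deposited signals with GCOS, as linear intensity values of 22746 probe sets that were already scaled by array. No further scaling was applied. The 9 signals at 0 were set to 0.1 before log2. Platform annotation named 13513 probe sets by exactly 1 gene and left 8730 unnamed. Those marked as cross-hybridising (_s_at, _x_at) were left out, which gave 13230 probe sets and 13074 genes, the brightest probe set being used for 145 genes with several. Genes over the 40th percentile on at least 1 array (8399) were tested with limma 3.58.1 in R 4.3.3 (lmFit, eBayes with an intensity trend, Benjamini-Hochberg), on as2-1, rh10-1, their interaction and temperature, with 3 residual degrees of freedom. The spread so measured is that between temperatures after a common shift, and p-values rest on it. Descriptions used Python 3.11.15, pandas 2.3.3 and numpy 2.4.6, and plots matplotlib 3.10.9. The fit was run on simulated data with known as2-1 by rh10-1 changes, independent noise and no temperature effect. That run checked the code and does not speak for the spread of these arrays. The 6 genes and the gene lists were chosen with earlier results of these data known. Named were the 6 genes, per list up to 2 genes of largest rh10-1 difference, list genes called by a term, 10 genes of most similar profile, chromosome neighbours and RH10. Neighbours came from a RefSeq gene table, and protein families are general annotation. Alternatives were quantile normalization, centring on the array median, floored signals, other filters, all probe sets, no intensity trend and each array left out. No sequence was used here. Precision is limited by having 8 arrays.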

Additional observations from a re-analysis of the deposited data

Results flagged for a closer look

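The as2-1 difference of AT5G60250 had opposite signs at the 2 temperatures. At 26°C, as2-1 was above Col-0 by 0.47 and the double mutant above rh10-1 by 0.72 on the log2 scale, whereas at 22°C the differences were -0.33 and -0.43. The mean at 26°C less that at 22°C was 0.977, and this difference was not tested, since each value rests on 1 pair of arrays.

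AT2G03130 differed with temperature in opposite directions with and without rh10-1. The log2 difference of 26°C to 22°C was -1.94 in Col-0 and -3.78 in as2-1, against 0.81 in rh10-1 and 0.13 in as2-1 rh10-1. The mean without rh10-1 less the mean with it was -3.335, which was not tested and rests on 26°C signals of 5.9 and 1.8, both under the 20th percentile of their array.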

How the results depend on the processing

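The as2-1 by rh10-1 term and the averaged as2-1 difference were called for none of the 6 genes under any of the 16 settings, and the temperature calls of AT1G17960 and AT1G23100 were kept under all of them. Over all genes, counts with 1 array left out were 0 to 1 for the as2-1 by rh10-1 term (1 without the double mutant at 22°C), 0 to 6 for the averaged as2-1 difference (3 without Col-0 at 26°C, 6 without the double mutant at 22°C), 1180 to 1801 for genes higher and 874 to 1459 for genes lower at 26°C, the lowest without as2-1 at 26°C and at 22°C respectively. With all probe sets, 3315 were higher and 2877 lower, more probe sets being tested. The 4 genes called for rh10-1, a contrast added after the data were seen, became 9 with floored signals, 1 with a filter at the median, 8 with all probe sets, 0 without an intensity trend and 0 to 40 with 1 array left out (0 without either rh10-1 array, without the double mutant at 26°C or without Col-0 at 22°C, and 40 without the double mutant at 22°C). Other causes were not tested.

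Terms that were not called changed sign. The as2-1 by rh10-1 term became -0.11 (quantile) and -0.001 (centred) for AT5G60250, and -0.07 (quantile) and -0.49 (floored) for AT2G03130, and the as2-1 difference of AT2G18720 became -0.07 (floored). With 1 array left out, the as2-1 by rh10-1 term ran from -1.55 to 1.90 for AT2G03130, -0.49 to 0.64 for AT5G60250, -0.99 to 0.39 for AT2G18720 and -0.002 to 2.59 for AT1G17960. The as2-1 difference ran from -0.33 to 0.36 for AT2G18720, -0.034 to 0.38 for AT1G23100, -0.17 to 0.39 for AT5G60250, -1.57 to 0.16 for AT2G03130, -0.63 to 0.025 for AT2G18190 and -1.09 to 0.21 for AT1G17960. The temperature difference of AT5G60250 ran from -0.039 to 0.47. AT2G18190 was called higher at 26°C in 2 settings. No paired analysis was possible because each genotype and temperature had 1 array, which leaves no replicate numbers to pair, beyond the temperature term of the model, which already compared genotypes within each temperature.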
